A study of Mus musculus with 20 samples.

Results

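The genes described are the secreted and membrane-bound proteases that cut the extracellular matrix, their relatives without a protease domain and their inhibitors, in C2C12 cells, a mouse myoblast line. They were chosen by name: a gene was taken when the only symbol of its probe set began with Mmp or Timp followed by a digit, or with Adamts. The rule found 49 of the 22180 genes measured, namely 22 Mmp genes, 18 Adamts genes, 5 Adamts-like (Adamtsl) genes and 4 Timp genes. It used no measured value, but these families were chosen with earlier results of these data known. Where a gene had more than 1 probe set, the one with the highest mean signal stood for it.

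Total RNA of cultured wells was hybridised to 20 Affymetrix arrays. BMP4, a recombinant bone morphogenetic protein that turns C2C12 cells from muscle towards bone-like cells, was given at 10, 100 or 300 ng/ml (2 arrays at each dose) and was set against untreated cells (2 arrays). Compounds 942, 178 and 181, presented by the study as small activators of BMP signalling, were given at 6.25, 12.5 or 25 µM (1 array at each dose) and were set against methanol (3 arrays). All wells held the same line in medium with serum, and how long treatment lasted is not stated in the labels. Nor do the labels say whether a group's arrays are of separate cultures: p-values then measure only the spread between these arrays, which may be technical. Values are deposited log2 signals. Array medians lay between 4.93 and 5.05. A difference of 1 is a doubling, and signals of different genes are not compared because probe sets differ in their response to RNA. A gene was called higher or lower at a Benjamini-Hochberg adjusted p under 0.05 over all 22180 genes in limma's moderated test, which was fitted to all 20 arrays with a term for the labelling method. Of the arrays, 4 carried the second labelling method, Affyexpress, namely replicate 1 of BMP4 300 ng/ml and all 3 arrays of compound 942. With this term replicate 2 alone gave the fitted mean at 300 ng/ml.

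Matrix metalloproteinases (Mmp) are zinc enzymes made as inactive precursors, and many are opened by other proteases at the cell surface. Adamts enzymes are related secreted proteases with thrombospondin repeats that trim procollagens, cut the proteoglycans aggrecan and versican or act on microfibrils, and Adamtsl proteins keep the repeats but have no protease domain. Timp proteins bind and block the active site of these enzymes. In muscle the system opens the matrix around migrating myoblasts, and in bone and cartilage it remodels collagen and proteoglycans.

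Promoter sequences are shown for 5 genes because the results turn on them: Adamtsl4, Timp3 and Mmp14, which were higher with BMP4, Adamts14, which was lower, and Mmp13, a collagenase of bone and cartilage whose signal stayed low. They are the 250 bases before the start in RefSeq's GRCm38.p6 table, written 5′ to 3′ on the strand of the gene. Capitals mark 4 motifs searched on both strands, namely TGANTCA (the AP-1 site bound by Fos and Jun proteins), GGCGCC (a GC-rich SMAD element), TGTGGT (the core Runx site) and CANNTG (the E-box of factors such as MyoD). The windows lie at chr3:95687918-95688167 on the minus strand for Adamtsl4, chr10:86300162-86300411 on the plus strand for Timp3, chr14:54431348-54431597 on the plus strand for Mmp14, chr10:61273420-61273669 on the minus strand for Adamts14 and chr9:7272264-7272513 on the plus strand for Mmp13.
Adamtsl4: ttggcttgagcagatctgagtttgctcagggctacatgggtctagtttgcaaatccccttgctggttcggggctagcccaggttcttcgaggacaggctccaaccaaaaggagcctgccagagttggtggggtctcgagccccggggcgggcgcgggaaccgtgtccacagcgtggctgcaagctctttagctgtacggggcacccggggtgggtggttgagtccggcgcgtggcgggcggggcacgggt
Timp3: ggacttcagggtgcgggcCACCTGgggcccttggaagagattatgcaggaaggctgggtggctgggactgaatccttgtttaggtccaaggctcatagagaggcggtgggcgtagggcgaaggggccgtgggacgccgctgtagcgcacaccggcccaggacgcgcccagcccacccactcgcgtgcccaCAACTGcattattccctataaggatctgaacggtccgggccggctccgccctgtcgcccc
Mmp14: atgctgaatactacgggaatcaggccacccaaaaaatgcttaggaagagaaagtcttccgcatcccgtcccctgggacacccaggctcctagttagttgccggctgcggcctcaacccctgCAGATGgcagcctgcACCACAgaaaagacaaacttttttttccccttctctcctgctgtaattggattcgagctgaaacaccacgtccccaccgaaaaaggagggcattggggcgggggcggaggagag
Adamts14: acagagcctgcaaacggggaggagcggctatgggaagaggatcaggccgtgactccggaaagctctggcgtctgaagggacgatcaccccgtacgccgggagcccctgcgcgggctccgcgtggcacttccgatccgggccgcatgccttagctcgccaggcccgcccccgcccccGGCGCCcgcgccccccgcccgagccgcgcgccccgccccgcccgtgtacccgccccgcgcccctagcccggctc
Mmp13: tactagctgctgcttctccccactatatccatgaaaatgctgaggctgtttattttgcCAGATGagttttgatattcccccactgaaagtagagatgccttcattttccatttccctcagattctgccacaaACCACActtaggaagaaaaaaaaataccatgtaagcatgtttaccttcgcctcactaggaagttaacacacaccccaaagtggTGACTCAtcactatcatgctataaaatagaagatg
The Mmp13 window held an AP-1 site whose first base lay 35 bases before the start, with a Runx core 118 bases and an E-box 192 bases before it. In Mmp14 the E-box lay 129 bases and the Runx core 114 bases before the start, Timp3 had E-boxes at 232 and 60 bases, and Adamts14 had the GC-rich SMAD element at 74 bases. Adamtsl4 held none of the 4. Such a match is a run of letters and not a measured binding site.

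BMP4 raised 9 of the 49 genes and lowered 3 when its 3 doses were averaged and set against untreated cells. The genes that rose were Adamtsl4, Mmp19, Adamtsl3, Mmp23, Adamts12, Timp3, Mmp2, Mmp14 and Adamts10, and those that fell were Adamts14, Adamts6 and Adamts7. The shares were 18.4% of the members higher and 6.12% lower, against 4.20% and 4.60% of all genes. Because the families were chosen with earlier results known, these shares are descriptive. By family, 4 of 22 Mmp genes, 2 of 18 Adamts genes, 2 of 5 Adamtsl genes and 1 of 4 Timp genes rose, and all 3 genes that fell were Adamts genes. The median change of the 49 was 0.01 on the log2 scale, against -0.01 for all genes. These were bulk samples, in which fewer cells of a type and less RNA per cell cannot be told apart.

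**Figure D1:**
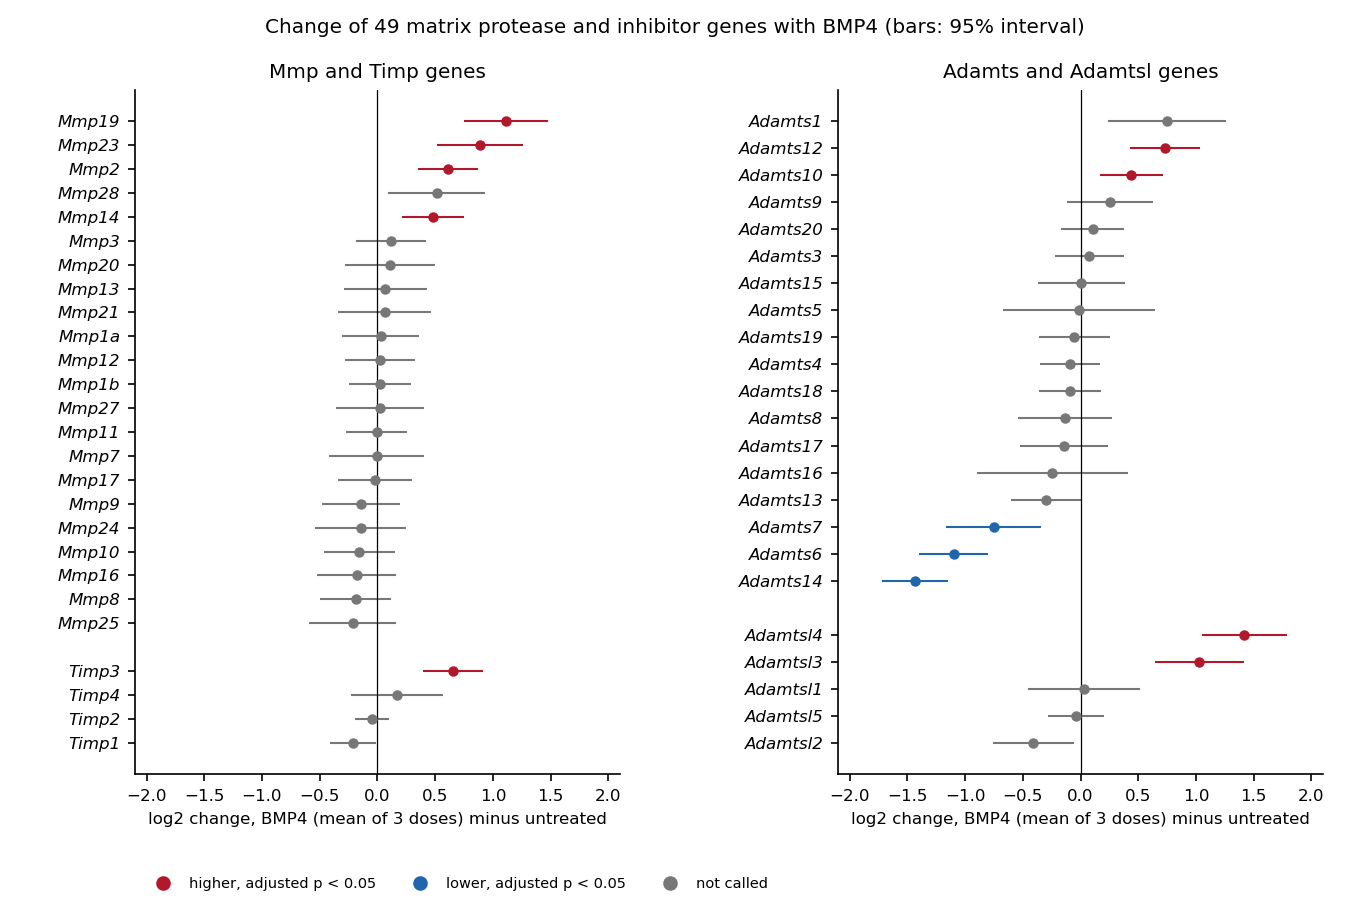
Log2 change of each of the 49 genes with BMP4 (mean of 3 doses) minus untreated cells, by family, with 95% intervals not adjusted for the number of genes. The 9 genes called higher are red and the 3 called lower blue; Adamtsl4 lies at 1.42 and Adamts14 at -1.43.

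Among the gelatinases and the enzymes at the cell surface, Mmp2, Mmp14 and Mmp23 rose. Mmp2 encodes gelatinase A, which cuts denatured collagen and collagen IV. Its log2 signal was 10.36 and 10.15 in untreated cells, 10.94 and 10.61 at 10 ng/ml BMP4, 10.99 and 10.95 at 100 ng/ml and 11.07 and 10.86 at 300 ng/ml. All 6 BMP4 arrays lay above all 14 others, which reached 10.52. The mean change was 0.61 ± 0.12 (SE; adjusted p = 0.00646), 1.53-fold, and the slope over the doses did not pass (0.02 per doubling, adjusted p = 0.824). Mmp14 encodes the membrane-anchored enzyme that, together with Timp2, opens the Mmp2 precursor. Its signal was 10.29 and 10.15 in untreated cells, 10.60 and 10.20 at 10 ng/ml, 10.92 and 10.61 at 100 ng/ml and 10.87 and 10.94 at 300 ng/ml. The arrays at the upper doses lay above all arrays without BMP4, and so did replicate 1 at 10 ng/ml, whereas replicate 2 overlapped them. The mean change was 0.48 ± 0.12 (adjusted p = 0.0318), and 8 alternative settings, some of which leave out 1 array, ended this call. The dose changes of Mmp14 were 0.18, 0.54 and 0.72. Timp2 gave 11.33 and 11.38 at 300 ng/ml, against 11.41 and 11.41 in untreated cells, and its mean change of -0.05 had a 95% interval from -0.20 to 0.10. Thus Mmp2 and Mmp14 passed the test and Timp2 stayed within a narrow interval around 0.

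Mmp23, a membrane-linked enzyme with an immunoglobulin-like domain, rose by 0.89 ± 0.17 (adjusted p = 0.00584). It gave 5.74 and 5.66 in untreated cells, 6.51 and 5.95 at 10 ng/ml, 6.91 and 6.46 at 100 ng/ml and 6.81 and 6.84 at 300 ng/ml. Replicates at 10 ng/ml stood apart by more than those at 300 ng/ml, and its call was lost without either untreated array (adjusted p = 0.0509 without replicate 1 and 0.0631 without replicate 2). Mmp19, a secreted enzyme found in many tissues, had the largest change of the Mmp genes. Its signal was 7.16 and 7.01 in untreated cells, 8.09 and 7.53 at 10 ng/ml, 8.73 and 8.25 at 100 ng/ml and 8.97 and 8.31 at 300 ng/ml. Every BMP4 array was above the 14 others, the highest of which gave 7.50. The mean change was 1.12 ± 0.17 (adjusted p = 0.00118), 2.17-fold.

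Mmp28 and Mmp16 were borderline. Mmp28, epilysin, gave 7.28 and 7.09 at 100 ng/ml and 7.14 and 7.20 at 300 ng/ml, all above the highest of the 14 arrays without BMP4 (6.62), but 6.92 and 6.05 at 10 ng/ml. Its mean change of 0.51 ± 0.19 did not pass (adjusted p = 0.141), but it did under 4 alternatives. These were a joint control of untreated and methanol arrays (adjusted p = 0.0252) and a term for 2 runs read from the order of the titles (0.0434). The others were the fit without replicate 2 at 10 ng/ml (0.66) and the fit without both arrays at that dose (0.75, adjusted p = 0.00286). The last was chosen after seeing the data. Mmp16, a membrane-anchored relative of Mmp14, passed only in the slope over the BMP4 doses (-0.20 per doubling, adjusted p = 0.0211). Its changes were 0.36, -0.32 and -0.58 from the lowest to the highest dose, and none of these passed on its own.

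The other Mmp genes did not pass in any BMP4 comparison. Mmp9, gelatinase B, ranged from 4.61 to 4.93 over the 6 BMP4 arrays, against 4.83 and 5.10 in untreated cells (-0.14 ± 0.15, adjusted p = 0.713). Mmp25 and Mmp24, both held at the membrane, had changes of -0.21 and -0.14, and those of Mmp17, Mmp11 and Mmp21 were -0.02, -0.01 and 0.06. In RefSeq's annotation of GRCm38.p6, 10 Mmp genes stand in a row on chromosome 9 with no other protein-coding gene between them, in the order Mmp13, Mmp12, Mmp1b, Mmp3, Mmp1a, Mmp10, Mmp8, Mmp27, Mmp20 and Mmp7. The row holds the interstitial collagenases and the stromelysins Mmp3 and Mmp10. Over all 20 arrays their signals lay between 1.97 and 4.83, below the lowest array median. At any dose, in the mean or in the slope 0 of the 10 were called. In the mean 4.20% of all genes were called higher and 4.60% lower, so 0 of 10 is near that share. Their mean changes ran from -0.19 (Mmp8) to 0.12 (Mmp3), and at single doses from -0.26 to 0.23. Of the 12 Mmp genes outside the row, 4 were called in the mean and 5 in some BMP4 comparison. Of these 12, 7 had a mean signal above that of the median gene, against 0 of the 10 in the row. The part of signal level in this difference was not tested. Mmp13, which osteoblasts and hypertrophic chondrocytes make, gave 2.78 and 3.17 at 10 ng/ml, 3.34 and 3.11 at 100 ng/ml and 3.20 and 3.21 at 300 ng/ml, against 3.29 and 2.84 in untreated cells. The difference was 0.07 with a 95% interval from -0.29 to 0.43. Whether signals this low rest on transcripts of these genes cannot be read from the arrays.

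AP-1 sites followed the same row of genes. Of the 49 members 34 had a promoter window in the table, and 8 of these (23.5%) held TGANTCA, against 6.75% of the 32851 windows in the table. All 8 were genes of the chromosome 9 row, in which 8 of 10 held the site. The other motifs were nearer to their share of all windows over the members as a whole: GGCGCC stood in 5 of the 34 (Adamts14, Adamts9, Adamtsl5, Mmp11 and Mmp23), against 9.59% of all windows, TGTGGT in 6, against 14%, and CANNTG in 24, against 66.2%. Of the 9 windows of genes called in a BMP4 comparison 0 held TGANTCA, 3 GGCGCC, 2 TGTGGT and 6 CANNTG, and of the 10 windows of the row 0 held GGCGCC, 4 TGTGGT and 9 CANNTG. These counts are small, and none was tested. That a motif is missing says only that its letters are not in this window.

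Of the inhibitors, Timp3 rose and the other 3 did not pass. Timp3 binds to the matrix and blocks several Adamts and Adam enzymes besides Mmp enzymes. It gave 9.71 and 10.03 in untreated cells, 9.88 and 9.55 at 10 ng/ml, 10.78 and 10.83 at 100 ng/ml and 10.68 and 11.06 at 300 ng/ml. At the lowest dose 1 array lay between the untreated arrays and the other below all 14 arrays without BMP4, and both upper doses lay above all 14 arrays without BMP4. The change was -0.16 ± 0.14 at 10 ng/ml (adjusted p = 0.777). It came to 0.94 ± 0.14 at 100 ng/ml (adjusted p = 0.00107) and 1.19 ± 0.17 at 300 ng/ml (adjusted p = 0.000948), and the slope of 0.28 per doubling was the largest upward slope of the members (adjusted p = 0.000407). The mean over doses, 0.66 ± 0.12 (adjusted p = 0.00372), was no longer called without untreated replicate 1 (0.50). Nor was it called without replicate 2 at 300 ng/ml (0.39), where the mean covers the lower doses only. Timp1, a secreted inhibitor, gave 11.38 and 11.08 at 10 ng/ml, below both untreated arrays (11.59 and 11.74), but 11.70 and 11.64 at 300 ng/ml. Its change at 10 ng/ml was -0.44 ± 0.11 (adjusted p = 0.0937). Timp4 differed by 0.17 ± 0.18 in the mean (adjusted p = 0.723). Timp2 had the smallest spread over the 20 arrays of all 49 genes (SD 0.0356).

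Adamts genes moved in both directions, also within pairs of close relatives. Adamts6 and Adamts10 are such a pair, both linked to fibrillin microfibrils. Adamts6 gave 8.93 and 9.0 in untreated cells, 7.78 and 7.79 at 10 ng/ml, 7.45 and 7.98 at 100 ng/ml and 7.73 and 8.10 at 300 ng/ml. All 6 BMP4 arrays were below the lowest of the 14 others (8.59). The change was already -1.18 ± 0.16 at the lowest dose (adjusted p = 0.0045), and the slope over the doses was 0.05 per doubling (adjusted p = 0.592). Adamts10 gave 6.05 and 6.03 in untreated cells, 6.55 and 6.31 at 10 ng/ml, 6.69 and 6.65 at 100 ng/ml and 6.56 and 6.35 at 300 ng/ml. Its 6 BMP4 arrays lay above all others, the highest of which gave 6.29. The mean change was small, 0.44 ± 0.12, and stood next to the threshold (adjusted p = 0.0469), which it missed under 10 alternative settings.

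Adamts7 and Adamts12 form a second pair, both known to cut the cartilage oligomeric matrix protein. For Adamts7 the signals were 8.88 and 8.79 in untreated cells, 8.85 and 9.0 at 10 ng/ml, 7.53 and 8.47 at 100 ng/ml and 7.23 and 7.34 at 300 ng/ml. The arrays at 10 ng/ml lay at the untreated level, those at 100 ng/ml stood apart from each other, and both at 300 ng/ml were lowest. The changes were 0.08, -0.84 ± 0.22 (adjusted p = 0.0336) and -1.50 ± 0.27 (adjusted p = 0.00416), and the slope of -0.32 per doubling was the steepest of the members (adjusted p = 0.00368). Its mean change of -0.75 lost its call without untreated replicate 1 (adjusted p = 0.188), untreated replicate 2 (0.112) or replicate 1 at 10 ng/ml (0.0617). It became -0.38, also not called, without replicate 2 at 300 ng/ml, where the mean covers the lower doses only. The call at 100 ng/ml was lost under 6 alternatives, and the change there became -0.37 without replicate 1. Adamts12 gave 6.5 and 6.36 in untreated cells, 7.14 and 6.94 at 10 ng/ml, 7.42 and 7.15 at 100 ng/ml and 7.14 and 7.17 at 300 ng/ml. It was higher in every BMP4 array than in the 14 others, by 0.73 ± 0.14 in the mean (adjusted p = 0.00519), with no called slope (0.03, adjusted p = 0.769).

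Adamts14, which removes the amino-terminal propeptide of fibrillar procollagens, had the largest fall. Its signal was 8.02 and 8.04 in untreated cells, 6.87 and 7.35 at 10 ng/ml, 6.31 and 6.42 at 100 ng/ml and 5.68 and 6.31 at 300 ng/ml. Every BMP4 array lay below the lowest of the 14 others (7.38), and the slope was -0.17 per doubling (adjusted p = 0.0156). The change was -0.92 ± 0.15 at 10 ng/ml (adjusted p = 0.0148), and at 100 ng/ml it was -1.66 ± 0.15 (adjusted p = 4.55e-05). At 300 ng/ml it was -1.72 ± 0.19 (adjusted p = 0.000166), and the mean of -1.43 is 2.70-fold lower. A second probe set of Adamts14 had a change of -0.43 (adjusted p = 0.147 over all probe sets), so the call rests on the probe set with the higher signal. The call at 10 ng/ml was lost with the mean over both probe sets (adjusted p = 0.118) and without untreated replicate 1 (0.126), untreated replicate 2 (0.0978) or replicate 1 at 10 ng/ml (0.0871). That of the slope was lost with the mean over both probe sets (adjusted p = 0.233) and without replicate 2 at 10 ng/ml (0.0894). Adamts3, the other procollagen N-proteinase among the members, had a mean change of 0.08 (adjusted p = 0.85).

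**Figure D2:**
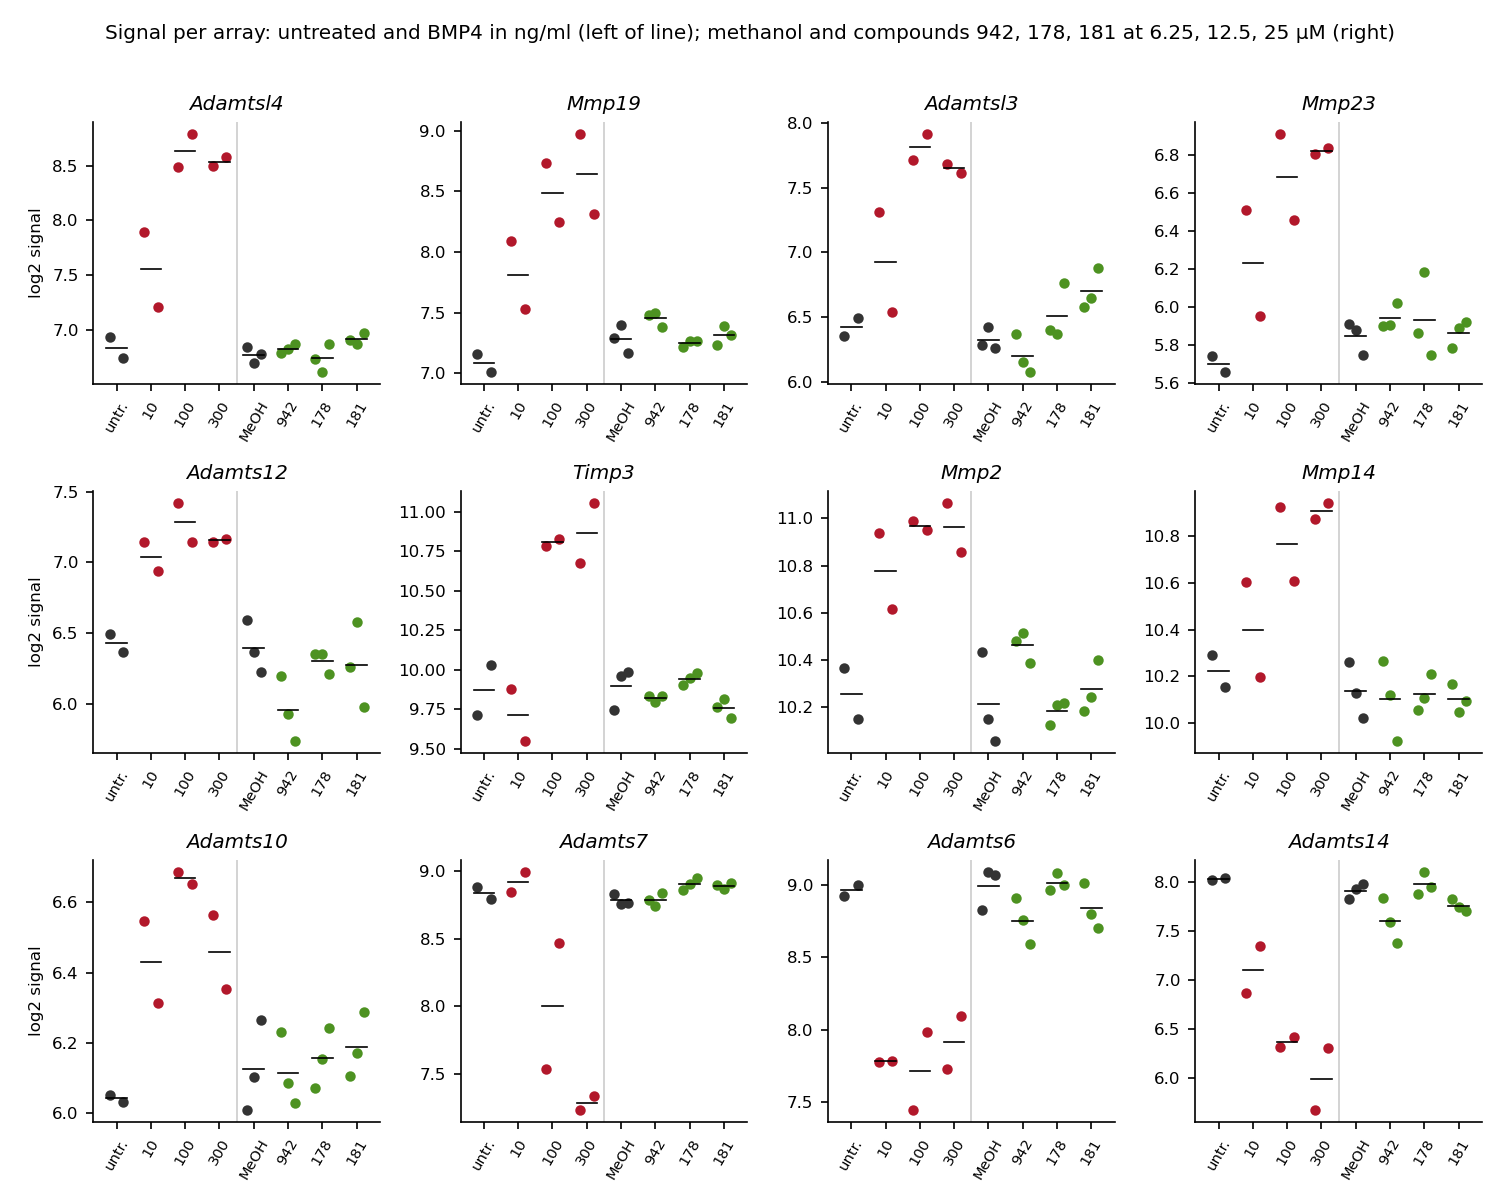
Log2 signal of the 12 genes called for the BMP4 mean in every array; dots are arrays, bars group means, black controls, red BMP4 and green compounds (each compound at 6.25, 12.5 and 25 µM from left to right). BMP4 arrays of Adamtsl4, Mmp19, Adamts12, Mmp2 and Adamts10 lie above all 14 others, and those of Adamts6 and Adamts14 below; the vertical axes do not start at 0.

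Of the proteoglycan-cutting enzymes Adamts1 was the only one called, and only at the highest dose. It gave 8.25 and 7.77 in untreated cells, 7.98 and 8.41 at 10 ng/ml, 9.28 and 8.23 at 100 ng/ml and 9.39 and 9.33 at 300 ng/ml. The arrays at 300 ng/ml were above all 14 arrays without BMP4, and 1 array at each lower dose was too. The change was 1.32 ± 0.34 at 300 ng/ml (adjusted p = 0.0313), which lost its call without untreated replicate 2 (1.08, adjusted p = 0.145). The mean of 0.75 ± 0.23 missed the threshold (adjusted p = 0.0721) but passed it under 7 alternative settings. Adamts4 and Adamts5, the main aggrecanases, had mean changes of -0.09 ± 0.12 and -0.01 ± 0.30 (adjusted p = 0.775 and 0.993). Adamts5 was uneven between replicates, with 7.51 and 8.52 at 10 ng/ml and 6.70 and 7.94 at 100 ng/ml, against 7.64 and 7.55 in untreated cells, so its interval ran from -0.67 to 0.65. Adamts9 had a mean change of 0.26, Adamts15 of 0.01, Adamts20 of 0.10 and Adamts8 of -0.14, and none passed. Among the rest, Adamts13, which cuts von Willebrand factor, had -0.30 (adjusted p = 0.254) and Adamts16 had -0.25 (adjusted p = 0.756), and Adamts17, Adamts18 and Adamts19 had -0.14, -0.09 and -0.05.

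Adamtsl4 and Adamtsl3, proteins of the matrix with no protease domain, rose together with the largest changes upwards outside the Mmp genes. Adamtsl4 binds fibrillin, and its loss in humans displaces the lens. The signal was 6.93 and 6.74 in untreated cells, 7.90 and 7.21 at 10 ng/ml, 8.48 and 8.79 at 100 ng/ml and 8.49 and 8.58 at 300 ng/ml. All 6 BMP4 arrays exceeded the highest of the 14 others (6.97), and the upper doses lay close together. The mean change was 1.42 ± 0.17 (adjusted p = 0.000249), 2.68-fold, and the changes by dose were 0.72, 1.80 and 1.74. For Adamtsl3 the signals were 6.35 and 6.49 in untreated cells, 7.31 and 6.54 at 10 ng/ml, 7.72 and 7.92 at 100 ng/ml and 7.68 and 7.62 at 300 ng/ml. At 10 ng/ml 1 array lay within the range of the arrays without BMP4 (6.08 to 6.88) and the other above it. The mean change was 1.03 ± 0.18 (adjusted p = 0.00289). Adamtsl5, also a fibrillin-binding protein, was not called at any dose but had a called slope of 0.15 per doubling (adjusted p = 0.0134). It gave 8.80 and 8.41 at 10 ng/ml, below all 14 arrays without BMP4 (8.88 to 9.14), and 9.0 and 9.34 at 300 ng/ml. Adamtsl2, which binds latent TGF-beta binding protein, and Adamtsl1 had mean changes of -0.41 ± 0.16 (adjusted p = 0.163) and 0.03 ± 0.22 (adjusted p = 0.976).

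Fewest members were called at the lowest dose. At 10 ng/ml 0 of the 49 genes were called higher and 2 lower (Adamts6 and Adamts14), against 0.555% and 0.546% of all genes; 13 of the 49 had an unadjusted p under 0.05, against 10% of all genes. With the run term 3 were called higher and 3 lower at this dose, and likewise with the joint control. Of all genes 595 and 548 were then called there, against 244 in the main fit. At 100 ng/ml 9 were higher and 3 lower, against 4.40% and 4.75% of all genes, and they were the genes called in the mean. At 300 ng/ml 8 were higher and 3 lower, against 3.70% and 4.28%. Compared with 100 ng/ml, Adamts1 was added there, and Mmp2 (adjusted p = 0.0553) and Adamts10 (adjusted p = 0.42) were not called. Slopes over the doses were called upwards for 3 genes (Timp3, Adamtsl4 and Adamtsl5) and downwards for 3 (Adamts7, Mmp16 and Adamts14), against 2.32% and 3.08% of all genes. The split was 9 upwards and 3 downwards without the labelling term, and also with the run term. Slopes called over all genes then numbered 1950 and 2211, against 1197 in the main fit. Adamts6, Adamts12, Mmp2 and Adamts10 thus had no called slope, while Timp3 and Adamts7 had changes near 0 at 10 ng/ml and large ones above it.

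**Figure D3:**
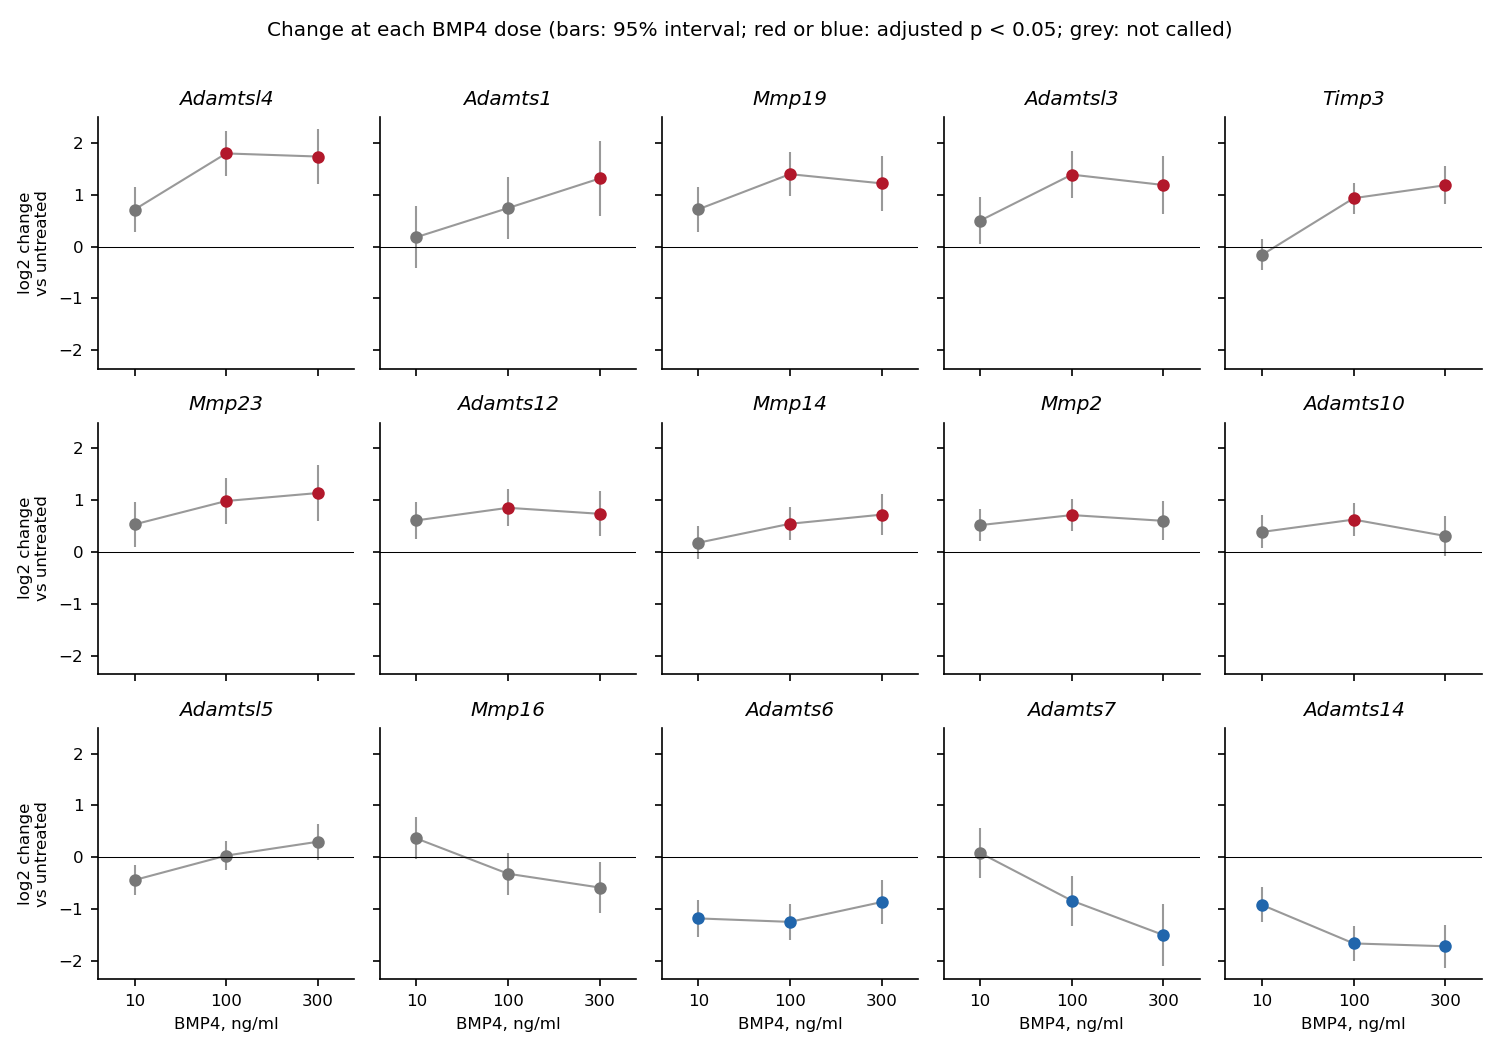
Log2 change against untreated cells at 10, 100 and 300 ng/ml BMP4 for the 15 genes called in any BMP4 comparison, with 95% intervals; red and blue points were called higher and lower. Adamts6 is at -1.18 at the lowest dose, whereas Timp3 is at -0.16 there and at 1.19 at the highest.

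The array titles are numbered 10 to 29 without a break, and treatments start again with an untreated array at 18. Arrays up to 17 and from 18 on are called 2 runs here, a split read from this order and not from a label. Each run held 1 untreated array and 1 array at each BMP4 dose. Within both runs the 12 genes called in the mean had the same direction as in the pooled fit. They were picked on these same arrays, so that outcome was largely set beforehand and is no separate support. Adamtsl4 was 1.36 higher in the first run and 1.45 in the second, Adamts14 was at -1.73 and -1.35, Adamts6 at -1.28 and -1.04, and Mmp19 at 1.44 and 1.02. Smaller changes were Timp3 at 0.73 and 0.45, Mmp14 at 0.51 and 0.43 and Adamts10 at 0.55 and 0.41. Adamts7 differed most in relative terms, with -1.01 in the first run and -0.53 in the second. At 100 ng/ml replicate 2 lay nearer to the untreated arrays than replicate 1 for Adamts7 (8.47 and 7.53) and Adamts1 (8.23 and 9.28). The same held for Mmp19 (8.25 and 8.73), Mmp23 (6.46 and 6.91), Adamts6 (7.98 and 7.45), Mmp14 (10.61 and 10.92) and Adamts12 (7.15 and 7.42). It held with smaller gaps for Mmp2, Adamts10 and Adamts14. The osteoblast gene Sp7 did likewise (8.03 and 9.87, against 4.06 and 4.37 in untreated cells). Of the 12 genes called in the mean, only Adamtsl4, Adamtsl3 and Timp3 had replicate 2 farther from the untreated arrays, as the higher array at that dose. These are gaps between signals. Against the untreated array of its own run, replicate 2 was nearer for Timp3 (0.80, against 1.07) and farther for Mmp2 (0.80, against 0.62). The other called genes kept their side. What sets the replicates apart was not tested.

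Some cell type markers moved with BMP4 as well, in a mean over doses that called 4.20% of all genes higher and 4.60% lower. Of 6 myoblast genes 5 were called lower, and the log2 of their summed signal ranged from 12.2 to 13.5 over the BMP4 arrays, against 13.4 to 13.5 over untreated and methanol arrays. Of 5 osteoblast genes listed 4 had a probe set with 1 symbol, which Runx2 did not, and 3 were called higher (Sp7, Alpl and Bglap). The log2 sum of the 4 was 6.68 to 11.5, against 6.57 to 6.76. Ibsp changed by -0.30 and was not called. Of 5 epithelial and 5 adipocyte genes 1 each was called higher (Krt14 and Fabp4). The 2 lists had log2 sums of 7.55 to 10.1 and 6.45 to 8.30, against 7.47 to 7.69 and 6.39 to 6.76. The epithelial genes not called changed by -0.31 (Cdh1) to 0.08 (Krt18), and the adipocyte ones by -0.20 (Plin1) to 0.13 (Cidec). None of 5 endothelial and 5 macrophage genes was called, with log2 sums of 6.64 to 6.95 and 6.98 to 7.23, against 6.61 to 6.87 and 6.75 to 7.02. The part of these shifts in the protease results was not tested. In untreated cells the listed myoblast genes Myod1 (10.57 and 10.43), Des (11.48 and 11.69) and Myog (11.17 and 10.94) had signals above the array medians of 4.93 to 5.05.

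Genes around the proteases were taken from a list of 50 regulators, partner enzymes, substrates and upstream factors. Of these 46 had a probe set with 1 symbol. BMP4 raised 10 of the 46 and lowered 0 in the mean over doses, against 4.20% and 4.60% of all genes. The list was drawn up with earlier results of these data known, so these shares describe it and test nothing. Among inhibitors and regulators 3 of 7 rose. Reck, a membrane-anchored inhibitor of Mmp2, Mmp9 and Mmp14, gave 6.71 and 6.72 in untreated cells, 7.38 and 6.92 at 10 ng/ml, 8.09 and 7.99 at 100 ng/ml and 8.18 and 8.21 at 300 ng/ml. Its mean change was 1.08 ± 0.13 (adjusted p = 0.000287), and every BMP4 array lay above every other. The thrombospondins Thbs1 and Thbs2, which bind Mmp2 and carry it to uptake by the cell, changed by 0.52 and 0.65 in the mean (adjusted p = 0.00154 and 0.000434). For both the change was near or below 0 at 10 ng/ml (-0.23 and 0.04) and about 1 at 300 ng/ml (1.01 and 1.08).

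Among the partner enzymes 2 of 12 Adam and astacin genes rose: Adam17, a sheddase that Timp3 blocks, by 0.51 (adjusted p = 0.0229), and Adam15 by 0.44 (adjusted p = 0.00597). Bmp1, the procollagen C-proteinase, was called at 100 and 300 ng/ml (0.32 and 0.53) but not in the mean (adjusted p = 0.053). Of the substrates 3 of 8 rose, namely the proteoglycan Vcan (0.69), the cartilage collagen Col2a1 (0.98, adjusted p = 0.0467) and Eln, elastin (0.47). Col2a1 differed between the replicates at 100 ng/ml, with 7.73 and 6.36, against 6.15 and 5.87 in untreated cells. Of the upstream factors Fos and Fosb, subunits of AP-1, rose at every dose, by 1.66 and 1.51 in the mean (adjusted p = 4.45e-06 and 7.4e-05), whereas Jun had changes of 0.40, 0.06 and -0.36 from the lowest to the highest dose and a called downward slope (-0.15 per doubling, adjusted p = 0.0466). The plasminogen system, the convertases and the cathepsins had 0 called genes of 4, 4 and 3. Of the genes not called in the mean, the largest changes were Fap at -0.75 (adjusted p = 0.0712; -1.21 and called at 100 ng/ml), Anpep at 0.54, Adam8 at -0.45 and Plaur at -0.38.

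The compounds called none of the 49 genes. For compound 942 and for compound 178 0% of all genes were called, and for compound 181 0.00451%, which is the single gene Slc7a11, a cystine transporter. An unadjusted p under 0.05 was reached by 1 of the 49 genes for 942, 0 for 178 and 2 for 181, against 1.5%, 2.47% and 3.68% of all genes. Of the 12 genes called for the BMP4 mean, the mean over compound doses minus methanol lay between -0.09 and 0.19 for 178 and between -0.16 and 0.38 for 181. For Adamtsl4 the 95% interval was -0.39 to 0.32 with 178 and -0.21 to 0.50 with 181, so that the BMP4 change of 1.42 lay outside both. For Adamts6 it was -0.27 to 0.31 with 178 and -0.45 to 0.13 with 181, against -1.10 with BMP4. These intervals hold no change of the size BMP4 gave, but they do not show that nothing changed.

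**Figure D4:**
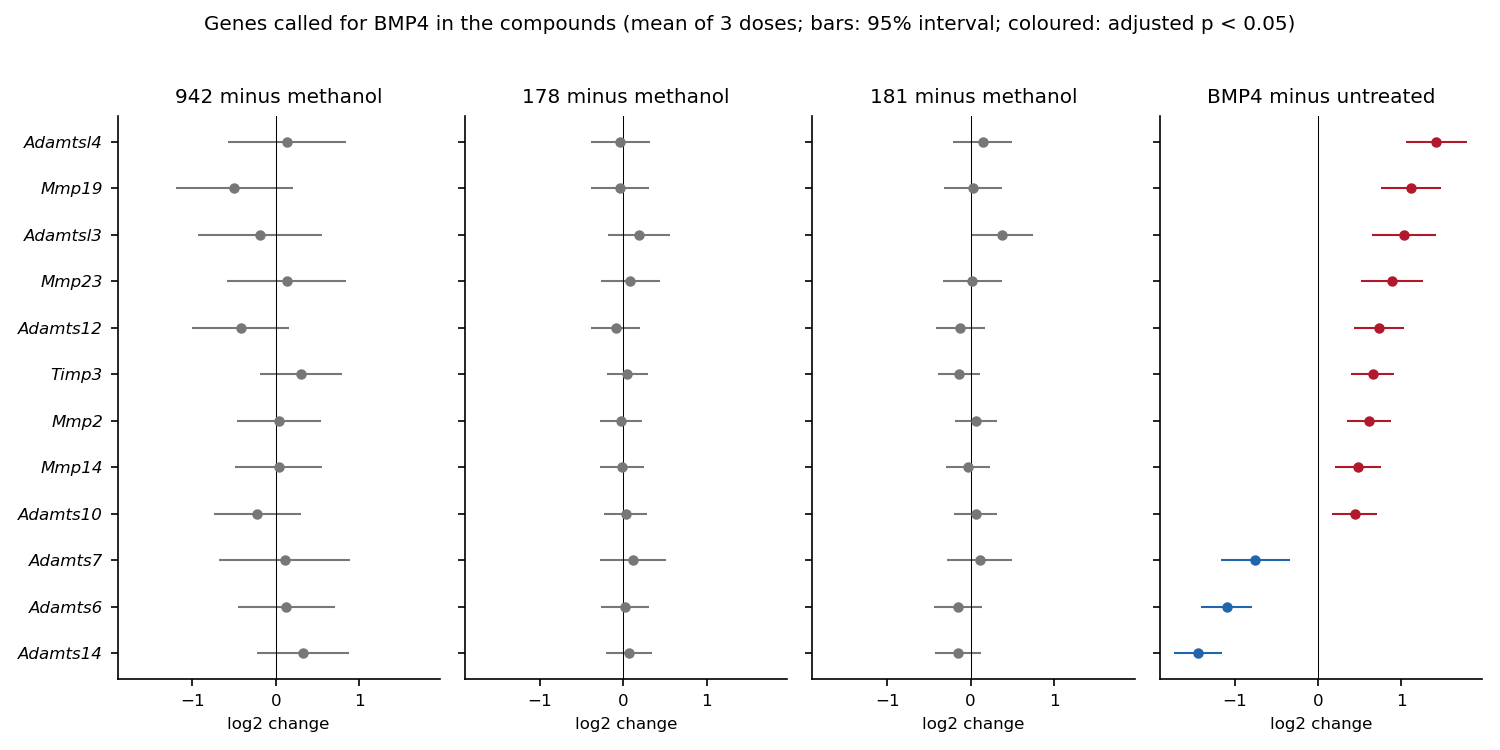
Log2 change of the 12 genes called for BMP4, for compounds 942, 178 and 181 (mean of 3 doses minus methanol) and for BMP4 (mean of 3 doses minus untreated), with 95% intervals. None of the 12 was called for a compound, and the intervals of compound 942 are wider (median SE of the 49 genes 0.296, against 0.148 for 178 and for 181).

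With compound 181 the members with an unadjusted p under 0.05 were Adamtsl3 and Adamts4. Adamtsl3 gave 6.58, 6.65 and 6.88 with 181 at 6.25, 12.5 and 25 µM, against 6.28, 6.43 and 6.26 with methanol. All 3 arrays of 181 lay above all 3 of methanol, and the change was 0.38 ± 0.17 (95% interval 0.00 to 0.75, adjusted p = 1). With 178 the same gene gave 6.40, 6.37 and 6.76, a change of 0.19. Adamts4 gave 6.75, 6.79 and 6.45 with 181, all below methanol (7.05, 6.85 and 6.91), a change of -0.28 ± 0.11, and 6.93, 7.21 and 7.15 with 178, a change of 0.16. Other leading changes with 181 were Adamtsl2 at -0.31, Mmp1a at 0.30, Mmp27 at 0.27 and Adamts5 at 0.27, and with 178 Mmp27 at 0.22, Adamtsl1 at -0.21, Timp4 at -0.21 and Mmp1b at -0.19. None passed the test. Within the second run, which held compounds 178 and 181 and 2 methanol arrays, Adamtsl3 was 0.36 higher with 181 and 0.17 with 178, and Adamts4 was at -0.22 and 0.21.

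Compound 942 shared its run with 1 methanol array of the other labelling method, and its fitted values depend on how labelling is treated. Its largest fitted changes were Adamtsl1 at -0.84, Mmp19 at -0.50, Timp4 at 0.49, Adamtsl5 at 0.47, Adamts12 at -0.42 and Mmp3 at 0.34, none called. Without the labelling term they were -0.18, 0.17, 0.23, 0.13, -0.44 and 0.07. Adamts12 alone kept its size, with 6.20, 5.93 and 5.74 from the lowest to the highest dose, against 6.59, 6.36 and 6.23 with methanol. All 3 arrays of 942 lay below all 3 of methanol, and the 95% interval of the change was -1.0 to 0.16. The change of this gene with BMP4 was 0.73. Adamts14 gave 7.84, 7.60 and 7.38 and Adamts6 8.91, 8.76 and 8.59 from the lowest to the highest dose of 942, against 7.83, 7.93 and 7.98 and against 8.83, 9.09 and 9.07 with methanol. The lowest of these arrays is the one at 25 µM in both genes, yet the fitted changes with the labelling term were 0.33 and 0.13. Against the methanol array of the same run they were -0.22 and -0.07. Labelling and compound 942 cannot be told apart within that compound, and no slope over its doses was tested. The labelling term rests on the 2 arrays of BMP4 300 ng/ml, which also belong to different runs. For Mmp19 these arrays gave 8.97 and 8.31, and 942 lay 0.16 above the methanol array of its run.

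Between compounds 3 pairs were compared over their matched doses. No member was called in any pair, against 0% of all genes for 942 minus 178, 0% for 942 minus 181 and 0.00451% for 181 minus 178 (Slc7a11 again). The largest difference between 181 and 178 was Adamts4, at -0.43 (95% interval -0.68 to -0.18, adjusted p = 0.699), with all 3 arrays of 181 below all 3 of 178. Mmp1b followed at 0.33 (0.07 to 0.58, adjusted p = 0.878), at signals of 2.01 to 2.52. For 942 minus 178 the extremes were Timp4 at 0.70 (-0.07 to 1.47) and Adamtsl1 at -0.63 (-1.56 to 0.30), and for 942 minus 181 an unadjusted p under 0.05 was reached by Adamtsl5 alone, at 0.48 (0.02 to 0.95). Compounds 178 and 181 shared a run and a labelling method, which 942 did not. The sources used here do not give the structures behind the code names.

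Methanol alone called none of the 49 genes and 0% of all genes. Its 1 member with an unadjusted p under 0.05 was Adamts13, which gave 4.50, 4.30 and 4.19 with methanol, against 4.87 and 4.73 in untreated cells (-0.47 ± 0.15, adjusted p = 1). All 3 methanol arrays lay below both untreated arrays, and the compounds covered 4.02 to 4.83. The median change of the 49 genes was -0.05, against 0.00 for all genes.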

How the data were processed

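The deposited values are log2 signals, 1 per probe set and array, which the authors made in Partek 6.5 with RMA (background correction, quantile normalization and summary of probes), per the submitters' processing notes. They were used as they stood. Per the labels' protocols some RNA was labelled by the Affyexpress method and some samples by both methods for batch correction, and no source used here states whether such a correction was made. The doses of 12.5 µM and 100 ng/ml stand in the sample titles but not in the protocol.

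Of 41345 probe sets 23521 carried 1 gene symbol in the platform annotation, 1814 several and 16010 none. Only those with 1 symbol were used, and 1 probe set with a member among several symbols was left out. The 49 members had 53 probe sets, and 4 members had 2 each. All 49 symbols were found in RefSeq's table. Arrays of a group held identical values for at most 0.0363% of probe sets.

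In limma 3.58.1 (R 4.3.3) a mean per treatment and dose and a labelling term were fitted to all 20 arrays and all 22180 genes, and moderated with a trend. This left 5 residual degrees of freedom, with a median prior of 6.73. Compound doses have 1 array each, and their spread was taken to equal that of the replicated groups. Contrasts were means over doses, single BMP4 doses, the slope per doubling of BMP4 dose and pairs of compounds. Intervals are 95% intervals not adjusted for the number of genes, and the number of arrays limits the precision. On simulated data this fit recovered 100% of 100 genes changed by 1 on the log2 scale in the BMP4 mean. It also recovered 100% of 100 genes changed by 2, with 15 false calls among 22180 genes. The simulated noise was independent between arrays, with no run or labelling effect, and the change was equal at all BMP4 doses. How the fit fares where these conditions do not hold was not simulated.

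Named genes are every member called in any contrast, up to 25 with the largest change in the BMP4 mean, 6 per compound, a fixed set of Timp, Mmp and Adamts genes, and of the pathway list the called ones and the 4 largest others. Mmp11, Mmp17, Mmp21, Adamts15 and other members were added to account for their families. The members, the pathway list and the marker lists were chosen with earlier results of these data known. Of the pathway list 4 genes were not analysed here. Alternatives changed the labelling term, the control, a term for the run, the probe set rule, the moderation, a filter on dim genes, the normalization, the dose model and the arrays. Leaving out both arrays at 10 ng/ml and taking differences within each run, without a test, were added after seeing the data.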

Additional observations from a re-analysis of the deposited data

How the results depend on the processing

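Over 31 alternatives 49 of 79 gene results kept their call, or their lack of one, throughout. Of the others 25 lost a call in at least 1 alternative and 5 gained one, and 0 turned a called direction. Results without a call could change sign and still count among the 49. Mmp19 did so with compound 942 (-0.63 to 0.17) and Adamts5 in the BMP4 mean (-0.23 to 0.20). Adamtsl4, Mmp19, Adamts6 and Adamts14 were called in the BMP4 mean under all alternatives. The number of members called was 12 in the BMP4 mean and lay between 6 and 13 when 1 array was left out (6 without untreated replicate 1 and 7 without untreated replicate 2). It was 2 at 10 ng/ml (1 to 5), 12 at 100 ng/ml (7 to 13), 11 at 300 ng/ml (6 to 13) and 6 for the slope (3 to 10, the extremes being without the second and the first array at 10 ng/ml). Without the labelling term 12 members had a called slope (9 up and 3 down). With a term for the run 12 did as well (9 up and 3 down). Over all genes 1950 and 2211 slopes were called in these fits, against 1197 in the main fit. At 10 ng/ml 6 were called with all untreated and methanol arrays as a joint control (3 up and 3 down). With a term for the run 6 were called (3 up and 3 down), and with the mean over probe sets 1. Over all genes these fits called 548, 595 and 231, against 244 in the main fit. In the BMP4 mean 3354 of all genes were called with the joint control and 2988 with the run term, against 1953. Pathway genes called in the BMP4 mean numbered 10, with 17 under the joint control, 19 with the run term and 7 to 13 without 1 array. In the BMP4 mean, calls were also lost for Adamtsl3 without untreated replicate 1 (adjusted p = 0.0521), for Adamts12 and Mmp2 without untreated replicate 2 (0.0677 and 0.0934) and for Adamts7 and Timp3 with a common mean for the doses (0.266 and 0.253). Timp1 (-0.23, adjusted p = 0.0328) was gained with the joint control, Adamtsl2 (-0.70) without untreated replicate 2 and Adamts16 (-0.50) without replicate 2 at 100 ng/ml. Counts for the compounds, their pairs and methanol were 0 under all alternatives that gave a value. Compound 942 could not be fitted without either array at 300 ng/ml. The median of all genes moved by at most 0.05. Without 1 array, calls at 100 ng/ml were lost for Adamts7, Adamts10, Adamts12, Mmp2, Mmp14 and Mmp23, at 300 ng/ml for Adamts1, Adamts6, Adamts12, Adamtsl3, Mmp14 and Mmp23, and of the slope for Adamts14, Adamtsl4, Adamtsl5 and Mmp16. The labels number no replicates, so the term for the run, which pairs 1 untreated array with 1 array of each BMP4 dose, was fitted in place of a replicate block. It gave 14 members in the BMP4 mean, 13 at 100 ng/ml and 13 at 300 ng/ml. Over all genes it called 2988, 3082 and 2678, against 1953, 2030 and 1770 in the main fit. The cause of these shifts was not tested.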
